A study of Sus scrofa with 2 samples.

Results

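The cells described here are cytotoxic T and natural killer (NK) lymphocytes of pig endometrium, the inner lining of the uterus. They were chosen barcode by barcode on measured unique molecular identifiers (UMIs, counts of captured RNA molecules). A barcode was taken when it held at least 1 UMI of PTPRC (the leukocyte antigen CD45) and at least 2 UMIs in total of CCL5, KLRK1 and XCL1. It also had to hold 0 UMIs of the macrophage genes C1QA and C1QB and under 2 UMIs of the plasma and B cell genes JCHAIN and CD79A. Barcodes with 2% or more of their UMIs from the gland secretion genes ACP5, RBP4 and UABP-2 were left out. The rule found 305 of 10045 barcodes in library 1 and 760 of 15093 in library 2, which makes 1065 of 25138 in all.

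The study took endometrium from both uterine horns of Yorkshire sows, 3 years old and of similar genetic background, after artificial insemination on day 0. One sow was sampled on day 7, which the submitters call the period before receptivity (Pre-ER), and another on day 13, called the receptive period (ER). The tissue was dissociated with enzymes, and each sow gave 1 droplet library of single cells. The matrix deposited for library 1 bears the name of the earlier stage and that for library 2 the name of the later stage. No sample label does so, and no stage was assigned to a library here. With 1 library per sow, a difference between the libraries cannot be told apart from a difference between the animals, their dissociation or their sequencing, and no test between them was possible. The intervals given are 95% intervals that cover counting error only.

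Cytotoxic T cells recognise antigen through the T cell receptor and its CD3 chains, whereas NK cells lack CD3 and read activating and inhibitory receptors on other cells. Both kill with perforin and granzymes and secrete interferon gamma, TNF and chemokines. In the pig, CD8A is carried by cytotoxic T cells and also by NK cells and some gamma delta T cells, and NKp46, the product of NCR1, marks part of the NK cells. In the uterus, such lymphocytes lie in the stroma and epithelium and take part in the remodelling of vessels and in the maternal response to the conceptus. A barcode without a CD3 UMI is not thereby an NK cell, since a cell at this depth shows only part of its RNA.

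The lymphocytes were shallow barcodes. Their median was 1499 UMIs (range 513 to 18866) in library 1 and 2316 UMIs (521 to 30556) in library 2, against medians of 3431 and 4335 over all barcodes. Together they held 839829 UMIs in library 1 and 2907494 in library 2, so library 2 gives the tighter values. The libraries shared 48 barcode sequences, of which 0 were among these cells. A doublet caller marked 51 of the 305 (16.7%) and 184 of the 760 (24.2%), against 11.1% and 16.1% of all barcodes, and the marked cells were deeper (medians of 4693 and 6179.5 UMIs, against 1400 and 1983.5 UMIs in the unmarked ones).

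As a share of all barcodes, the lymphocytes made up 3.04% (2.71 to 3.39) of library 1 and 5.04% (4.69 to 5.40) of library 2. Of the barcodes with a PTPRC UMI, they were 305 of 902 (33.8%, 30.7 to 37.0) and 760 of 2592 (29.3%, 27.6 to 31.1). The higher share in library 2 thus went with more leukocyte barcodes as a whole, and the share among leukocytes was not higher there. The rule needs counted molecules, and library 2 was deeper. With every barcode thinned to 1000 UMIs before the rule was applied, the shares were 1.83% and 3.52%.

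The genes of the rule are a description of what was selected. CCL5, a chemokine stored and released by cytotoxic cells, had a UMI in 95.4% and 93.7% of the cells, with a median of 11 and 13 UMIs per cell. KLRK1, the activating receptor NKG2D, had one in 59.0% and 79.7%, and XCL1, a chemokine that draws cross-presenting dendritic cells, in 47.2% and 35.7%. All 3 genes were seen together in 29.2% and 29.6%, and CCL5 was the only one of them in 23.9% and 16.1%. Summed over the cells and expressed as CPM, the UMIs of a gene per 1000000 UMIs of these cells, CCL5 stood at 4649 and 4840.2 CPM in libraries 1 and 2, KLRK1 at 685 and 1331 CPM, XCL1 at 482 and 171 CPM and PTPRC at 1092 and 1210.0 CPM. CPM follows the number of molecules and does not correct for gene length, which hardly matters for reads from the 3′ end.

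At the edge of the rule, 38 barcodes of library 1 and 121 of library 2 passed every other step with only 1 UMI of the 3 genes, and their summed NKG7 was 37.6 and 36.3 CPM. The 18 and 42 cells with exactly 2 UMIs stood at 153 and 46.7 CPM of NKG7, and the 12 and 42 cells with 3 UMIs at 123 and 121 CPM. In library 2, cells just inside the limit were therefore close to those just outside it in this granule gene. For CD3D, the cells with 1 UMI stood at 75.2 and 33.6 CPM and those with 2 UMIs at 69.7 and 104 CPM.

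The genes that led these cells over all other barcodes were lymphocyte genes. After the genes of the rule, the named genes with the highest fold over the other barcodes in both libraries, among those with at least 100 CPM in each, were KLRB1 (the receptor CD161), NKG7 (a protein of cytotoxic granules), CST7 (cystatin F, an inhibitor of granule proteases), IL2RB (the shared receptor chain for interleukins 2 and 15), CD3D and SKAP1 (an adaptor of T cell receptor signalling). PVRIG (an inhibitory receptor), CAMK4, SEPTIN1, PTPRCAP and IKZF3 completed them. NKG7 had 418 CPM (375 to 464) in library 1 and 495 CPM (469.7 to 521) in library 2, against 5.70 and 8.94 CPM in all other barcodes. CST7 had 385 and 341 CPM, IL2RB 204 and 202 CPM, SKAP1 181 and 630.1 CPM and PVRIG 125 and 171 CPM. A gene without a symbol in the deposited annotation, ENSSSCG00025060491, was more abundant than any of these, at 6285 and 2546 CPM, or 211-fold and 177-fold over the other barcodes. A second one, ENSSSCG00025059390, stood at 289 and 526 CPM. Several defining genes had no row under their symbol, among them CD3E, CD2, CD8B, CD4, TRAC, GZMA, GZMB and GNLY, so CD3 below means CD3D and CD3G.

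The label was also set against other leukocytes of the same libraries. IL7R-positive lymphocytes without a UMI of the 3 cytotoxic genes (131 and 164 barcodes) had NKG7 at 83.6 and 43.8 CPM, PRF1 at 0 and 6.26 CPM, and CD3D at 189.6 and 117 CPM. The C1Q-positive macrophages (111 and 154 barcodes) had NKG7 at 152 and 122 CPM and CD3D at 0 and 2.47 CPM. CD3D was thus about as abundant in the IL7R-positive lymphocytes as in the cytotoxic ones, whereas PRF1 and NKG7 were lower there.

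Some of the selected barcodes held RNA of other cells. A total of 2 or more UMIs from a list of macrophage, monocyte and dendritic markers was found in 13 cells of library 1 (4.26%) and 41 of library 2 (5.39%). These were deep (medians of 7958 and 6459 UMIs), and 6 and 9 of them were called doublets. AIF1, a macrophage gene, reached 796 and 571 CPM in them, against 6.87 and 9.20 CPM in the remaining cells, while CCL5 stood at 644 and 1209 CPM against 5263 and 5257 CPM. KLRK1 was at 0 in the 13 cells of library 1. C1QA and C1QB are at 0 by the rule, and AIF1 accounted for most of the list, with 94 UMIs in 16 cells and 195 UMIs in 58 cells. Because these deep barcodes weigh heavily in a sum (13.3% and 10.3% of the lymphocytes' UMIs), some of the results they touch are given below without them as well.

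Stromal RNA was present, at a lower level than in all other barcodes together. Those include the stromal cells themselves, since stromal-marker barcodes made up 57.4% of library 1 and 27.5% of library 2. The 9 stromal fibroblast markers summed to 13200.3 CPM in the lymphocytes of library 1 and 4399.7 CPM in those of library 2, against 26430.3 and 6293 CPM in all other barcodes. Stromal, endothelial, muscle and epithelial markers together had 3 or more UMIs in 242 of the 305 cells and 531 of the 760. In 52 and 85 cells, these markers made up 1% or more of the UMIs. The gland gene ACP5 had a UMI in 96.8% of the lymphocytes of library 2 and in 97.3% of the stromal-marker barcodes there, against 17.0% and 1.56% in library 1. ACP5 was therefore found in nearly every barcode of both kinds in library 2. Stromal-marker barcodes (5762 and 4149, with medians of 4209 and 5093 UMIs) serve below as the background for detection in cells that should lack lymphocyte genes.

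**Figure D1:**
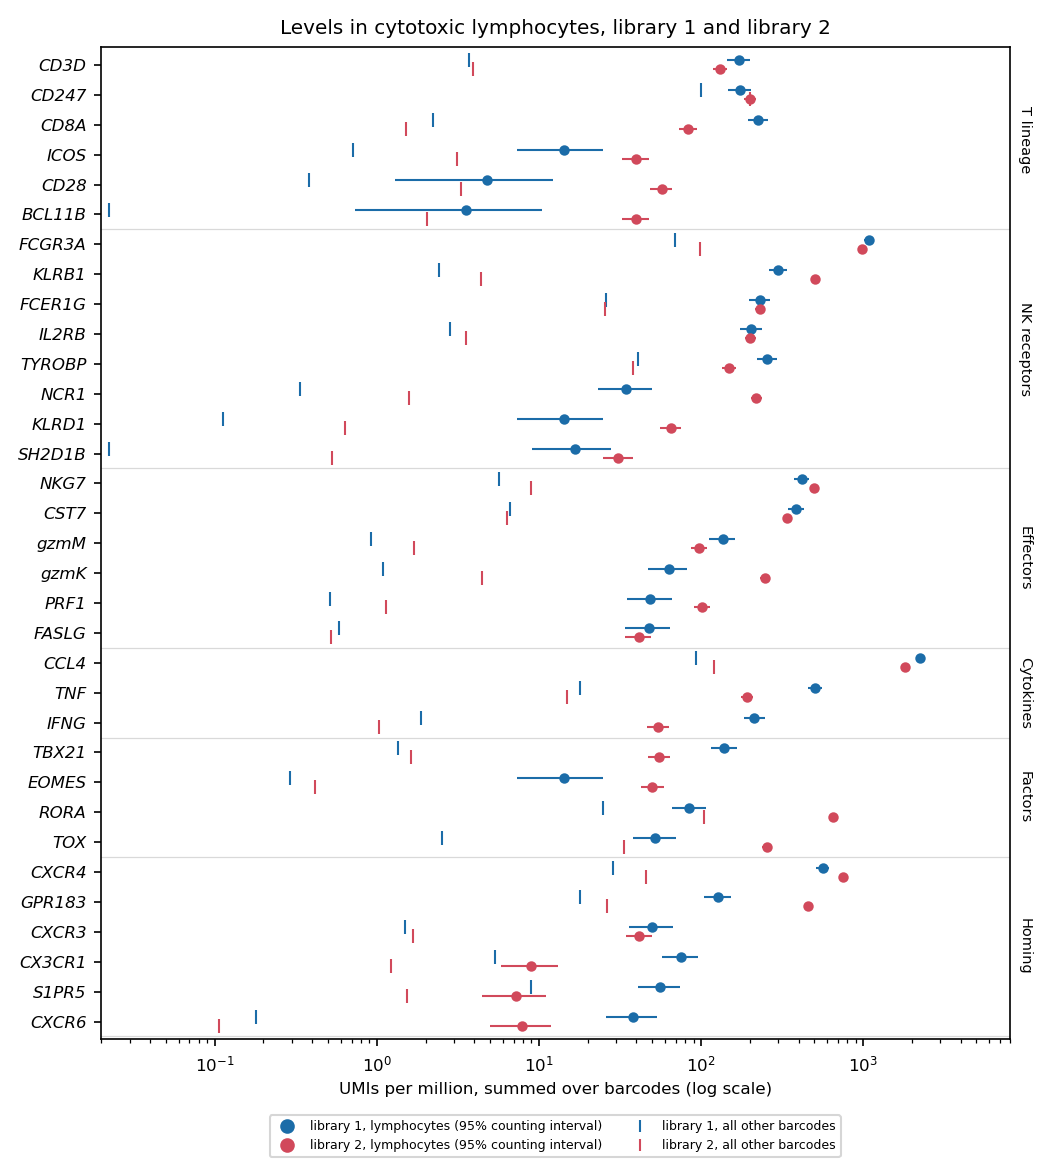
Levels of lymphocyte genes, in CPM on a log axis, summed over the cells of library 1 (blue) and library 2 (red), with 95% counting intervals; short vertical marks give the level in all other barcodes of the same library. Every listed gene lies above the marks of its own library except CD247 in library 2, where the lymphocytes stood at 200.2 and the other barcodes at 201 CPM.

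The question of the lineages was asked with CD3, NCR1 and CD8A, none of which entered the rule. A CD3 UMI was seen in 107 of 305 cells (35.1%, 29.7 to 40.7) in library 1 and 258 of 760 (33.9%, 30.6 to 37.4) in library 2. An NCR1 UMI was seen in 17 cells (5.57%, 3.28 to 8.77) and 269 cells (35.4%, 32.0 to 38.9). A CD8A UMI was seen in 42.3% and 23.0%. The intervals for CD3 overlapped at the libraries' own depths, NCR1 was detected more often in library 2, and CD8A more often in library 1. In the stromal-marker barcodes, CD3D was seen in 0.278% and 0.313%, NCR1 in 0.0347% and 0.0723%, and CD8A in 0.295% and 0.193%, although those barcodes were deeper.

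Thinned to 1000 UMIs, which leaves out 49 and 39 shallower cells, CD3 was seen in 23.8% (18.7 to 29.5) and 16.1% (13.5 to 19.0), NCR1 in 3.52% and 20.7%, and CD8A in 26.2% and 13.3%. At equal depth, the share with CD3 was higher in library 1, with intervals that overlapped slightly. The CD3D level had the same direction, at 171 CPM (145 to 202) in library 1 and 132 CPM (119 to 146) in library 2. For NCR1 and CD8A, the order of the libraries was the same with and without thinning.

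CD3 and NCR1 were seen in the same barcode in 8 cells of library 1 and 81 cells of library 2. If detection of one did not depend on the other, the shares above would give 5.96 and 91.3 such cells. The cells with both were the deepest class in library 2 (median 3099 UMIs). Without called doublets and without cells with 1% or more of other cell types, 54 of 555 cells of library 2 held both, against 63.3 if independent. CD3 and CD8A were seen together in 45 and 76 cells, against 45.3 and 59.4 if independent, and 84 and 99 cells had CD8A without CD3. NCR1 and CD8A met in 1 cell of library 1 and 28 of library 2. Neither CD3 nor NCR1 was seen in 189 cells (62.0%) of library 1 and 314 (41.3%) of library 2, so the lineage of a large share of these barcodes was not readable at this depth.

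**Figure D2:**
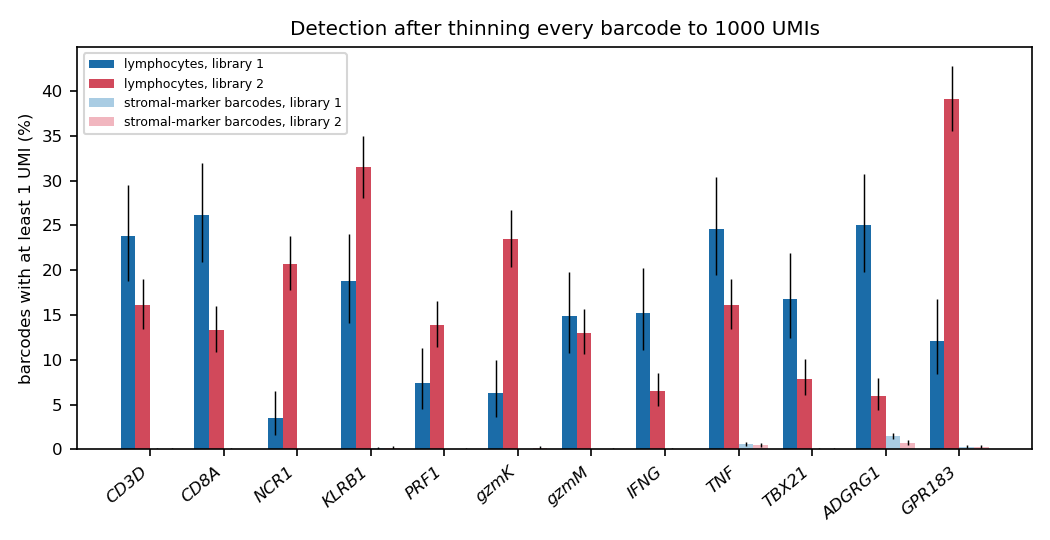
Share of barcodes with at least 1 UMI (%) after thinning to 1000 UMIs, for 12 genes in the lymphocytes (dark bars) and stromal-marker barcodes (pale bars) of library 1 (blue) and library 2 (red); lines are exact 95% binomial intervals. NCR1 was seen in 3.52% and 20.7% of the lymphocytes and GPR183 in 12.1% and 39.1%, while IFNG was seen in 15.2% and 6.52%.

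Of 8058 genes with a symbol and at least 10 UMIs, 1781 (22.1%) were at least 2-fold higher and 871 (10.8%) at least 2-fold lower in library 2, with a median log2 ratio of library 2 over library 1 of 0.06. In all other barcodes the median was 0.01. The ratio in the other barcodes is given beside many of the ratios in the lymphocytes, and counts in a gene list are to be read against 22.1% and 10.8%. A set of 117 genes with at least 50 CPM on average and a mean level in the lymphocytes at least 5-fold that of the other barcodes had 30 genes higher and 9 lower by 2-fold, with a median of 0.10, whereas the same genes had a median of 0.54 in the other barcodes. Without the 4 genes of the rule among them, 30 of 113 were higher and 8 lower, with medians of 0.10 and 0.50. SPP1, described below, is 1 of the 8.

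**Figure D3:**
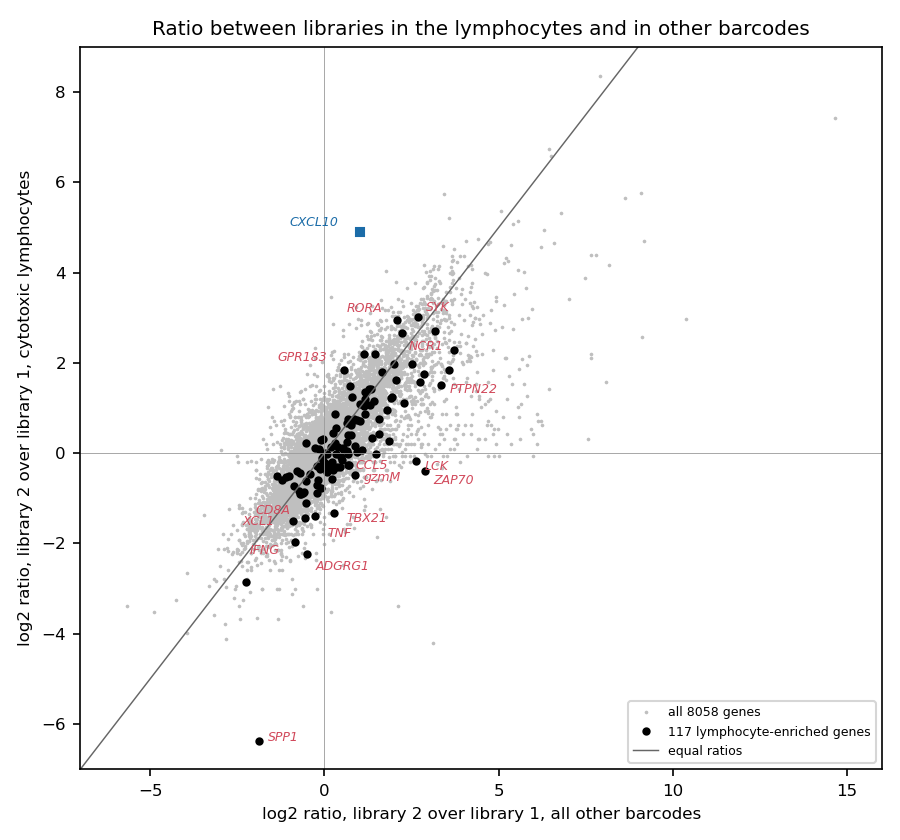
Log2 ratio of library 2 over library 1 for 8058 genes, in the lymphocytes (vertical axis) and in all other barcodes (horizontal axis); grey points are all genes, black points the 117 lymphocyte-enriched genes, and the line marks equal ratios. GPR183 (1.85 against 0.55) lies above the line, and LCK (-0.18 against 2.63), TBX21 (-1.33 against 0.28) and SPP1 (-6.37 against -1.87) lie below it.

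Of the T lineage genes, 8 were measured, with 3 higher and 2 lower by 2-fold and a median of -0.09 (other barcodes 0.54). CD8A, the co-receptor chain, had 226 CPM (195 to 261) in library 1 and 83.6 CPM (73.4 to 94.8) in library 2, a log2 ratio of -1.44 (-1.72 to -1.16) against -0.54 in the other barcodes. It was lower in library 2 in sum and in detection, and over 10 other choices of cells, depth, scaling or weighting its ratio lay within -1.86 to -0.999. The signalling chain CD247 differed little, with a log2 ratio of 0.20 (-0.06 to 0.48). In library 2 its level was near that of all other barcodes, so it did not set the lymphocytes apart there.

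The costimulatory receptors of T cells had few UMIs in library 1. CD28 stood at 4.76 CPM (1.30 to 12.2) in library 1 and 57.1 CPM (48.7 to 66.5) in library 2, with a log2 ratio of 3.58 (2.20 to 5.48), and ICOS at 14.3 CPM (7.38 to 24.96) in library 1 and 39.6 CPM (32.7 to 47.5) in library 2, with 1.47 (0.61 to 2.46). BCL11B, a transcription factor that fixes T cell identity, had 3 UMIs in library 1 and 115 in library 2, and a ratio of 3.47 (1.89 to 5.77). In the other barcodes the ratios were 3.13, 2.12 and 4.93, so the higher counts of these genes in library 2 were not seen in the lymphocytes alone. In the cells with under 3 UMIs of other cell types, the ratio was 0.40 for BCL11B and 1.16 for CD28. Library 1 had few UMIs of either gene, and setting a count under 3 to 3 there lowers the ratio. No smaller difference is read from these values. CD40LG, the helper ligand, was low in both libraries (26.2 and 6.53 CPM) and far higher in the IL7R-positive lymphocytes of library 1 (193 CPM).

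Signalling genes downstream of the T cell receptor were split. Of 17 measured, 10 were at least 2-fold higher in library 2 and 0 lower, with a median of 1.36, but the same genes had a median of 1.65 in the other barcodes. The kinases closest to the receptor did not follow them: LCK had 252 CPM (219.6 to 289) in library 1 and 223 CPM (206 to 240.4) in library 2, a ratio of -0.18 (-0.41 to 0.05), and ZAP70 89.3 and 67.4 CPM, a ratio of -0.41 with an interval that ends just below 0. In the other barcodes, LCK and ZAP70 had ratios of 2.63 and 2.89, from low levels of 5.70 and 2.81 CPM in library 1. FYN, another kinase of this family, was higher in library 2 both here (2.06) and elsewhere (1.99), and SKAP1 likewise (1.80 and 1.65). The brakes PTPN22 and UBASH3B had ratios of 1.51 and 2.60, against 3.35 and 2.54 in the other barcodes, and PRKCQ one of 1.85 against 3.57.

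Of 16 NK receptor and adaptor genes measured, 4 were at least 2-fold higher in library 2 and 0 lower, with a median of 0.01 (other barcodes 0.50). NCR1, the activating receptor NKp46, had 34.5 CPM (23.1 to 49.6) in library 1 and 219 CPM (202 to 237) in library 2, and a log2 ratio of 2.67 (2.13 to 3.26). KLRD1, the receptor chain CD94, had 14.3 CPM (7.38 to 24.96) in library 1 and 65.0 CPM (56.1 to 74.96) in library 2, a ratio of 2.19 (1.35 to 3.16). Both were far lower in the other barcodes of library 2, at 1.58 and 0.638 CPM. The ratios in the other barcodes were 2.23 and 2.51. Over the 10 alternatives the ratio of NCR1 stayed within 2.17 to 2.81 and that of KLRD1 within 1.37 to 2.68.

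KLRB1 had 299 CPM (263 to 338) in library 1 and 506 CPM (480.1 to 532) in library 2, a ratio of 0.76 (0.56 to 0.96). It was concentrated in a minority, being seen in 20.0% and 42.5% of the cells. KLRF1, the receptor NKp80, came to 2 UMIs in the first library and to 179 CPM in the second, but it stood at 142 CPM in the other barcodes there and was seen in 15.7% of the stromal-marker barcodes, against 31.3% of the lymphocytes. Its ratio in the lymphocytes was 5.65 (4.37 to 9.28), with the 2 UMIs set to 3, and 8.63 in the other barcodes, so its level there was near that of the other barcodes.

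FCGR3A, the antibody receptor CD16, was the most abundant gene of the list, with 1084 CPM (1014 to 1156) in library 1 and 983 CPM (947 to 1019.7) in library 2. Its ratio was -0.14 (-0.25 to -0.03), against 0.50 in the other barcodes. Without the cells with macrophage-list UMIs, FCGR3A stood at 1042 CPM in library 1 and 833 CPM in library 2. FCGR3A does not mark these cells alone, since IL7R-positive lymphocytes had 852 and 593 CPM and C1Q-positive macrophages 2509 and 1965 CPM. The adaptors TYROBP and HCST had ratios of -0.78 (-1.02 to -0.54) and -0.88 (-1.15 to -0.60), and FCER1G one of 0.01 (-0.22 to 0.25). The cells with macrophage-list UMIs held 65.1% and 55.2% of the TYROBP UMIs and 39.9% and 24.4% of those of FCER1G. Without these cells, TYROBP stood at 103 CPM in library 1 and 74.4 CPM in library 2. In the 63 and 229 cells with under 3 UMIs of other cell types, TYROBP and FCER1G were higher in library 2, with ratios of 1.71 and 1.84, so what they show depends on which barcodes are kept. HCST stayed within -1.05 to -0.77 over the alternatives. IL2RB was level, with a ratio of -0.01 (-0.26 to 0.24).

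**Figure D4:**
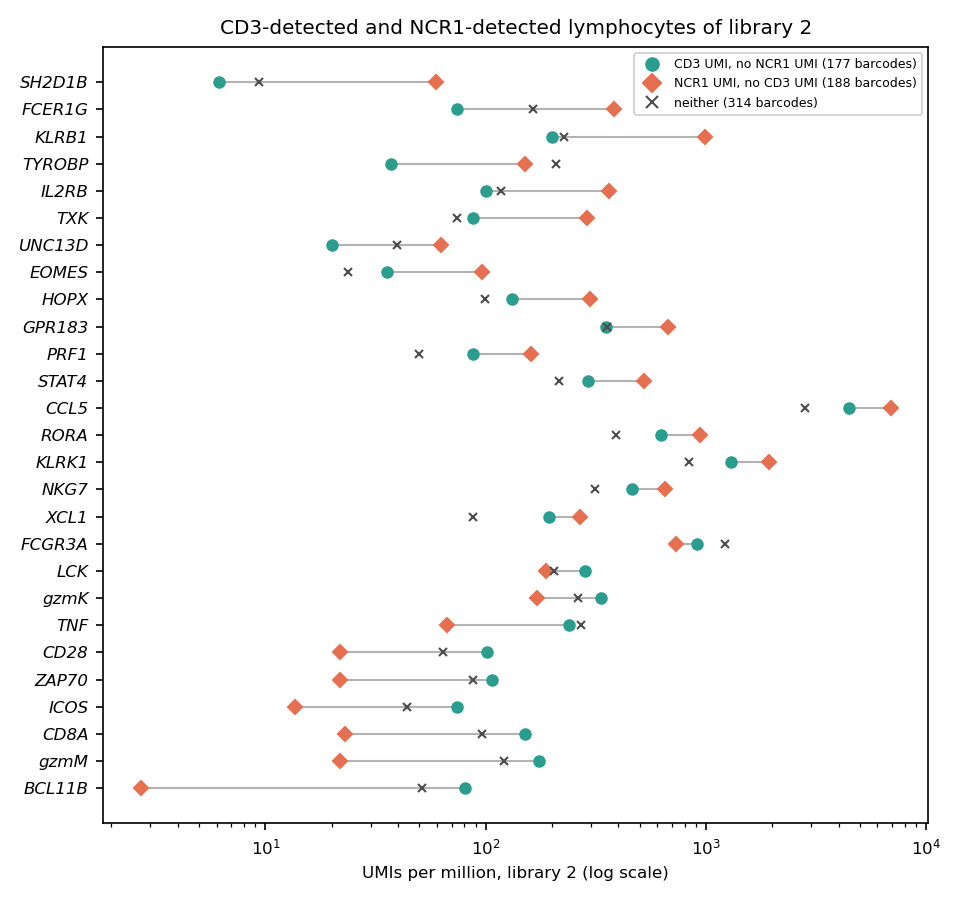
Levels in library 2, in CPM on a log axis, of 27 genes in lymphocytes with a CD3 but no NCR1 UMI (circles, 177), with an NCR1 but no CD3 UMI (diamonds, 188) and with neither (crosses, 314); CCL5, KLRK1 and XCL1 are genes of the rule. KLRB1 stood at 988 in the diamonds and 199 in the circles, BCL11B at 2.71 and 80.2, and FCGR3A at 735 and 914.

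Library 2 held enough of both kinds to set cells with NCR1 and no CD3 (188 cells, median 2401 UMIs) beside cells with CD3 and no NCR1 (177 cells, median 2161 UMIs). This comparison was chosen after values had been seen, and its cells come from 1 animal. The ratios are log2, NCR1 class over CD3 class. Of 14 NK receptor and adaptor genes other than NCR1 with at least 10 UMIs, 8 were higher in the NCR1 class with an interval that leaves out 0, 1 (FCGR3A) was lower, and for 5 (KLRF1, NCR3, CD226, NCAM1 and SLAMF7) the interval spanned 0. Among the 8, KLRB1 stood at 988 against 199 CPM, a ratio of 2.31 (2.04 to 2.59), FCER1G at 2.36 (1.92 to 2.84), TYROBP at 2.02 (1.38 to 2.72) and SH2D1B, an adaptor of NK receptors, at 3.27 (1.81 to 5.21). IL2RB stood at 362 against 100.3 CPM, a ratio of 1.85 (1.46 to 2.27). The macrophage gene AIF1 was also higher in the NCR1 class, at 44.7 against 4.63 CPM, a ratio of 3.27 (1.60 to 5.62). That class held 4 cells with macrophage-list UMIs, against 1 in the CD3 class. The ratios between the classes, those of TYROBP and FCER1G included, are not given without these cells. Genes higher in the CD3 class included CD8A (151 against 23.0 CPM, -2.71, -3.55 to -1.96), CD28 (-2.23, -3.12 to -1.43) and ICOS (-2.45, -3.60 to -1.45). Also among them were ZAP70 (-2.30, -3.18 to -1.50) and BCL11B, whose 2 UMIs in the NCR1 class were set to 3 (-4.30, -7.97 to -2.96). For the signalling chain CD247, the interval spanned 0 (0.04, -0.30 to 0.38).

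The killing genes did not run one way between these classes. PRF1, perforin, was higher with NCR1, at 161 against 87.96 CPM and 0.88 (0.41 to 1.36), as was UNC13D, which primes granules for release (1.64, 0.72 to 2.65). The granzyme genes gzmM (21.7 against 174 CPM, -3.01, -3.86 to -2.25) and gzmK (171 against 335 CPM, -0.97, -1.30 to -0.65) were higher with CD3. TNF was higher with CD3 (-1.85, -2.34 to -1.38), and for IFNG the interval spanned 0 (-0.37, -1.03 to 0.30). EOMES (1.44, 0.74 to 2.19), TXK (1.71, 1.28 to 2.16), HOPX (1.18, 0.81 to 1.56) and GPR183 (0.94, 0.71 to 1.17) were higher with NCR1. FCGR3A was slightly higher with CD3 (-0.31, -0.48 to -0.14), and most abundant in the cells with neither, at 1223 CPM. In those 314 cells, which include 34 of the 41 with macrophage-list UMIs, KLRB1 (226 CPM) lay near the CD3 class and CD8A (96.5 CPM) between the classes.

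In library 1, only 9 cells had NCR1 without CD3, against 99 with CD3 and no NCR1. KLRB1 (1904 against 202 CPM, 3.24, 2.45 to 3.99), IL2RB (3.36, 2.59 to 4.09), FCER1G (3.31, 2.11 to 4.42), HCST (2.39, 1.46 to 3.24) and HOPX (2.30, 1.44 to 3.09) were higher with NCR1, each with at least 11 UMIs in the 9 cells. FCGR3A, with 18 UMIs in the 9 cells, was level, at -0.006 (-0.78 to 0.68). CD8A had 0 UMIs in the 9 cells and 68 in the 99. CD28, ICOS and BCL11B also had 0 UMIs in the 9 cells, a number too small to read T cell genes from.

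Splitting all lymphocytes by CD3 alone (107 against 198 cells and 258 against 502 cells) showed which genes went with CD3 in each library. CD8A was higher with CD3 in both, by 0.52 (0.08 to 0.96) and 0.73 (0.35 to 1.11) on the log2 scale. Without the 13 and 41 cells with macrophage-list UMIs, the values for CD8A were 0.28 (-0.17 to 0.72) and 0.61 (0.23 to 0.99). SYTL2, which binds Rab27 on secretory granules, had 0.77 (0.14 to 1.39) and 0.67 (0.36 to 0.98), and RASAL3, a regulator of Ras, had 0.77 (0.20 to 1.32) and 0.58 (0.20 to 0.95), but -0.53 in library 1 after thinning to 1000 UMIs. MGP, a matrix gene of stromal cells, was also higher with CD3, by 2.00 (1.37 to 2.65) and 1.19 (0.79 to 1.60), as were TBC1D10C, POLR2G and ITIH4. After thinning, ITIH4 was lower with CD3, at -1.02 and -0.20. The genes lower with CD3 were mostly macrophage and lysosome genes, among them AIF1, at -3.69 (-10.59 to -2.76) with 1 UMI set to 3 and -2.63 (-3.49 to -1.87), CTSS, at -1.70 (-2.39 to -1.07) and -1.28 (-1.62 to -0.95), and TYROBP, at -1.36 (-1.96 to -0.79) and -1.30 (-1.68 to -0.93). CTSB, IFI30, FOLR1, LRRK2 and ASC were the others, of which LRRK2 and ASC came to 0.94 each in library 1 after thinning. Of the cells with macrophage-list UMIs, 1 of 13 and 3 of 41 had CD3.

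Without the 13 and 41 cells with macrophage-list UMIs, 2 of the 16 genes named by the rule, MGP and CTSB, still had intervals without 0 in both libraries. MGP stood at 1.75 (1.12 to 2.41) and 1.21 (0.78 to 1.64), and CTSB, a lysosomal protease, at -0.97 (-1.86 to -0.16) and -0.61 (-1.09 to -0.14). AIF1, itself on the list that chose those cells, came to 0.57 and -0.80, TYROBP to 0.40 and -0.27, and CTSS to 0.015 and -0.26, each with intervals that span 0. SYTL2, RASAL3, TBC1D10C and ITIH4 kept their sign in both libraries, with intervals that span 0 in library 1.

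Of the cytotoxic effector genes, 15 were measured, with 4 higher by 2-fold in library 2 and 0 lower, and a median of -0.21 (other barcodes 0.07). PRF1 had 48.8 CPM (35.0 to 66.2) in library 1 and 102 CPM (90.9 to 114) in library 2, a log2 ratio of 1.07 (0.59 to 1.57). Granzyme K (gzmK) had 63.1 CPM (47.3 to 82.5) in library 1 and 249 CPM (231 to 267) in library 2, a ratio of 1.98 (1.57 to 2.41). Both were higher in library 2, and at equal depth PRF1 was seen in 7.42% and 13.9% and gzmK in 6.25% and 23.4% of the cells. Granzyme M (gzmM) ran the other way, with 136 CPM (112 to 163) in library 1 and 97.3 CPM (86.3 to 109) in library 2. Its ratio was -0.48 (-0.80 to -0.15), against 0.88 in the other barcodes, there from levels of 0.920 and 1.69 CPM. Over the 10 alternatives, the ratio of gzmK lay within 1.24 to 2.72, that of PRF1 within 0.69 to 1.18 and that of gzmM within -0.71 to -0.31.

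The granule proteins present in most killers were nearly level: NKG7 had a ratio of 0.24 (0.07 to 0.42), CST7 -0.17 (-0.36 to 0.01) and SRGN, the proteoglycan that packs granules, -0.21 (-0.35 to -0.08). FASLG, the death ligand, had 47.6 and 41.3 CPM. The genes of granule release STX11 (48.8 and 260.4 CPM, 2.41, 1.96 to 2.91) and RAB27A (25.01 and 105 CPM, 2.07, 1.43 to 2.78) were higher in library 2, but so they were in the other barcodes (3.14 and 1.81). UNC13D (-0.30) and STXBP2 (-0.08) were not. PRF1 and gzmK also had positive ratios elsewhere (1.14 and 2.01), there from levels of at most 4.43 CPM, and cells just outside the rule are among those barcodes.

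Of 11 secreted messengers measured, 4 were lower by 2-fold in library 2 and 1 was higher, with a median of -0.31 (other barcodes -0.13). IFNG had 213 CPM (183 to 247) in library 1 and 54.7 CPM (46.5 to 63.9) in library 2, which gives -1.96 (-2.28 to -1.65) on the log2 scale, and TNF 507 CPM (460.2 to 558) in library 1 and 193 CPM (177 to 209) in library 2, a ratio of -1.40 (-1.58 to -1.21). Both cytokines were thus higher in library 1, and this held at equal depth, where IFNG was seen in 15.2% and 6.52% and TNF in 24.6% and 16.1% of the cells. Over the alternatives, IFNG stayed within -2.29 to -1.89 and TNF within -1.61 to -1.22. In the other barcodes the ratios were -0.84 and -0.26, and in the IL7R-positive lymphocytes TNF stood at 501 and 84.5 CPM.

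The chemokine CCL4 was abundant in both, at 2236 CPM (2136 to 2339.7) in library 1 and 1803 CPM (1754 to 1852) in library 2. Its ratio was -0.31 (-0.39 to -0.23), against 0.36 in the other barcodes. MIF, a cytokine of many cell types, was lower in library 2 here (-1.01, -1.19 to -0.84) as elsewhere (-1.13). IL10, an inhibitory cytokine and the 1 higher gene, had 4 and 55 UMIs, a ratio of 1.99 (0.55 to 3.92). Its lowest value among the alternatives was 0.20. With 4 UMIs in library 1, setting a count under 3 to 3 in fewer cells lowers the ratio. CXCL8 had 16 and 18 UMIs (-1.62, -2.68 to -0.55). XCL1, part of the rule, had a ratio of -1.49 (-1.69 to -1.30), which is given as a description.

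Of 13 homing and adhesion genes, 2 were higher and 4 lower by 2-fold, with a median of -0.67 (other barcodes -0.60). CX3CR1, the fractalkine receptor of circulating killers, had 75.02 CPM (57.6 to 96.0) in library 1 and 8.94 CPM (5.84 to 13.1) in library 2, and S1PR5, which guides NK cells out of tissue, had 56.0 CPM (41.1 to 74.4) in library 1 and 7.22 CPM (4.47 to 11.04) in library 2. Their ratios were -3.07 (-3.79 to -2.39) and -2.95 (-3.77 to -2.18). Both receptors were lower in library 2, and both were also lower in its other barcodes (-2.15 and -2.55). CXCR6, a receptor of tissue-resident lymphocytes named after its values were seen, had 38.1 and 7.91 CPM, a ratio of -2.27 (-3.11 to -1.45) against -0.76. CX3CR1, S1PR5 and CXCR6 were therefore lower together.

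GPR183, the oxysterol receptor EBI2, went the other way, with 127 CPM (104 to 154) in library 1 and 459.8 CPM (436 to 485) in library 2 and a ratio of 1.85 (1.57 to 2.15) against 0.55 in the other barcodes. It was seen in 17.7% and 62.0% of the cells, and in 1.18% and 1.06% of the stromal-marker barcodes. Its ratio was within 1.47 to 2.23 over the alternatives. In the IL7R-positive lymphocytes GPR183 stood at 415 and 328 CPM, so a higher level in library 2 was found in the cytotoxic cells and not in those. The difference between the 2 cell types was not tested. CXCR4, the receptor for CXCL12, had 563 and 747 CPM, a ratio of 0.41 (0.26 to 0.55), and CXCR3, the receptor for interferon-induced chemokines, 50.01 and 41.6 CPM.

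Of 9 genes linked to tissue residency, 2 were higher and 1 lower by 2-fold, with a median of -0.31 (other barcodes 0.39). RGS1, which dampens chemokine receptor signals, had 623 CPM (571 to 678) in library 1 and 1278 CPM (1237 to 1319) in library 2, a ratio of 1.04 (0.90 to 1.17) against 1.14. CD69, which holds lymphocytes in tissue, had 393 CPM (352 to 438) in library 1 and 210.5 CPM (194 to 228) in library 2, a ratio of -0.90 (-1.10 to -0.70) against -0.67. NR4A1 and NR4A2, nuclear receptors induced by stimulation, had ratios of 1.14 (0.78 to 1.52) and -0.31 (-0.50 to -0.13), while in the other barcodes both were far higher in library 2 (3.10 and 2.19). RGS1 (0.85) and NR4A1 (0.67) were no longer past 2-fold under at least 1 alternative. In 11 genes of naive or circulating cells, 4 were higher and 3 lower, with IL7R at 227 and 126 CPM (-0.86, -1.11 to -0.60), BACH2 at 5.95 and 114 CPM and LEF1 at 47.6 and 466 CPM. LEF1 was higher still in the other barcodes of library 2 (931 CPM) and BACH2 nearly as high (86.9 CPM), so neither set the lymphocytes apart there.

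Transcription factors of lymphocytes were higher in library 2 by 2-fold in 16 of 31 cases and lower in 1, with a median of 1.06 against 0.99 in the other barcodes. The 1 lower factor was TBX21 (T-bet), which drives the interferon gamma programme and is named after its values were seen. TBX21 had 139 CPM (115 to 167) in library 1 and 55.4 CPM (47.2 to 64.6) in library 2, a ratio of -1.33 (-1.68 to -0.97) against 0.28. EOMES, its relative in killer cells, had 14.3 CPM (7.38 to 24.96) in library 1 and 50.2 CPM (42.4 to 59.1) in library 2, a ratio of 1.81 (0.96 to 2.80) against 0.50. The pair of T-box factors thus ran in opposite directions, and at equal depth TBX21 was seen in 16.8% and 7.91% and EOMES in 3.12% and 7.21%. The ratio of TBX21 stayed within -1.39 to -0.87 over the alternatives and that of EOMES within 0.34 to 2.34. The lowest value of EOMES was found where cells with 3 or more UMIs of other cell types were left out. EOMES had few UMIs in library 1, where setting a count under 3 to 3 lowers the ratio.

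RORA, a nuclear receptor of innate and type 17 lymphocytes, had 84.5 CPM (66.0 to 107) in library 1 and 649 CPM (619.7 to 679) in library 2, a ratio of 2.94 (2.60 to 3.30) against 2.07. It was seen in 54.1% of the stromal-marker barcodes of library 2 as well, though at a far lower level (104 CPM in all other barcodes). TOX, a factor of NK development and exhausted T cells, had 52.4 and 255 CPM (2.28, 1.84 to 2.75, against 3.73). ID2, which holds back T cell fate in innate lymphocytes and is named after its values were seen, was lower in library 2, at 701 and 364 CPM (-0.95, -1.09 to -0.80, against 0.27).

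Among 25 genes of cytokine receptors and their signalling, 9 were higher and 2 lower by 2-fold, with a median of 0.81 (other barcodes 0.74). STAT4, which carries the interleukin 12 signal, had 52.4 CPM (38.1 to 70.3) in library 1 and 343 CPM (322 to 365) in library 2, a ratio of 2.71 (2.28 to 3.18) against 3.16. JAK2 (1.92 against 2.01), stat5B (2.53 against 2.45) and SOCS2 (3.41 against 3.02) differed about as much in the other barcodes. In the cells with under 3 UMIs of other cell types, the ratio was 0.13 for SOCS2 and 0.74 for stat5B. Both had few UMIs in library 1, where setting a count under 3 to 3 lowers the ratio. No smaller difference is read from these values. CISH, a feedback inhibitor of cytokine signals named after its values were seen, was lower in library 2 here (-1.23, -1.71 to -0.74) and higher there elsewhere (1.59). Of 16 inhibitory and costimulatory receptors, 6 were higher and 1 lower. TNFRSF1B, the second TNF receptor, had 84.5 CPM (66.0 to 107) in library 1 and 163 CPM (149 to 179) in library 2, a ratio of 0.95 (0.59 to 1.33) against -0.36. LAG3, the 1 lower gene, had 35.7 and 10.7 CPM (-1.74, -2.52 to -0.97), and the checkpoint genes TIGIT (4.76 and 8.94 CPM) and CTLA4 (0 and 10 UMIs) were near the limit of detection.

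Stress genes, which dissociation of tissue can induce, were less different in the lymphocytes than elsewhere. Of 38 measured, 10 were higher by 2-fold in library 2 and 0 lower, with a median of 0.15 against 1.06 in the other barcodes. FOS, named after its values were seen, had 3114 and 2909 CPM, a ratio of -0.10 (-0.16 to -0.03) against 1.05, and ATF3 416 and 1223 CPM, a ratio of 1.56 (1.40 to 1.72) against 3.04. BTG1, which restrains division in resting lymphocytes, had 161 and 1591 CPM (3.31 against 3.65). Of 15 NF-kappaB genes, 6 were higher and 0 lower, among them TNFAIP3 (1.45 against 3.11), BIRC3 (1.18 against 1.92), MAP3K8 (1.62) and NFKBIB (1.78). Under at least 1 alternative, TNFAIP3 (0.95), BIRC3 (0.81) and NFKBIB (0.92) were no longer past 2-fold. FAS, the death receptor, had 21.4 and 124 CPM (2.53, 1.85 to 3.31, against 1.32).

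Interferon-response genes were higher by 2-fold in library 2 in 7 of 23 cases and lower in 0, with a median of 0.50 (other barcodes 0.18). IRF1, a transcription factor of the response, had 159.6 and 453 CPM (1.504 against 2.30), and MX2, an antiviral protein, had 32.1 and 229 CPM (2.83 against 2.62). CXCL10, a chemokine induced by interferon gamma, had 15.5 CPM (8.24 to 26.5) in library 1 and 462 CPM (438 to 487) in library 2, a ratio of 4.90 (4.12 to 5.81) against 1.02. In library 2 its 1343 UMIs lay in 104 cells, and 70.7% of them in the 41 cells with macrophage-list UMIs, where CXCL10 reached 3172 CPM, against 151 CPM in the remaining cells. The C1Q-positive macrophages of library 2 had 3345 CPM. In library 1, 12 of its 13 UMIs lay in 1 such cell. Without the macrophage-list cells the ratio was 5.19 (4.29 to 12.08), with the 1 UMI of library 1 set to 3, so CXCL10 was also higher in the remaining cells of library 2.

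SPP1, osteopontin, a secreted gland and macrophage product, owed its sum in library 1 to 1 barcode. It had 828 CPM (767 to 891) in library 1 and 9.97 CPM (6.68 to 14.3) in library 2, a ratio of -6.37 (-6.96 to -5.84), but 648 of the 695 UMIs of library 1 (93.2%) lay in 1 cell. Without the macrophage-list cells the ratio was -2.97, and without called doublets and cells with 1% or more of other cell types it was -0.08.

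**Figure D5:**
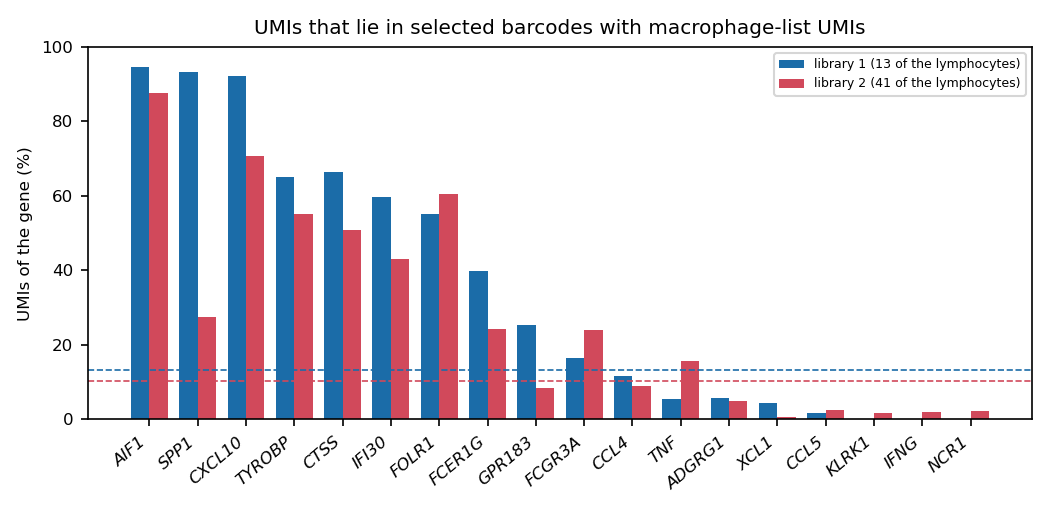
Share of each gene's UMIs (%) that lies in the 13 lymphocyte barcodes of library 1 (blue) and the 41 of library 2 (red) with 2 or more macrophage-list UMIs; dashed lines mark their share of all lymphocyte UMIs, 13.3% and 10.3%. AIF1, which helped to choose these barcodes, stands at 94.7% and 87.7%, and KLRK1 and NCR1 at 1.76% and 2.20% in library 2.

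Some genes differed between the libraries in the lymphocytes more than in the other barcodes, or the reverse. Those with the highest difference between the ratios, besides CXCL10, included PIK3R1, a regulatory subunit of PI3-kinase (0.22, 0.06 to 0.39, against -1.15), MED7 (1.95, 1.46 to 2.49, against -0.40), CHSY1 (1.07, 0.63 to 1.53, against -0.93), ATP2B4, a calcium pump (0.81, 0.51 to 1.13, against -0.99), AGPAT2, MKLN1, ANTXR2, GFOD1 and MT1D. The lowest were ACP5, UABP-2, CBR2, KLRF1, SPP1, SPATA13, S100A1, TUBA4A, LCK and NR4A2. ACP5 and UABP-2 are genes of the rule, whose limit on gland RNA removed 55 barcodes in library 2 and 0 in library 1, so nothing is read from their values, and SPP1 rests on 1 cell. Among the lymphocyte-enriched genes, ADGRG1 (GPR56, a receptor of cytotoxic cells, named after its values were seen) had 289 CPM (254 to 328) in library 1 and 61.9 CPM (53.2 to 71.6) in library 2, a ratio of -2.22 (-2.51 to -1.94) against -0.50. Thinned to 1000 UMIs, ADGRG1 was seen in 25% and 5.96% of the cells and in 1.45% and 0.751% of the stromal-marker barcodes. S100A4, a calcium-binding protein of motile cells, had 650.1 CPM (597 to 707) in library 1 and 90.5 CPM (79.9 to 102) in library 2, a ratio of -2.85 (-3.06 to -2.63) against -2.25. So ADGRG1 was lower in library 2 by more in the lymphocytes than elsewhere, and so was S100A4, by a smaller margin.

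Ribosomal protein, respiratory chain and long-intron genes had median ratios in the lymphocytes near those in the other barcodes. Ribosomal protein genes were lower by 2-fold in library 2 in 34 of 62 cases and higher in 0, with a median of -1.16 (other barcodes -1.43), and nuclear-encoded respiratory chain genes were lower in 18 of 41 and higher in 1, with -0.70 (-0.84). Genes with very long introns were higher in 26 of 28 and lower in 0, with 2.86 (2.84). These shifts were as large in the other barcodes, and their part in the ratios of lymphocyte genes was not tested. Of 19 proliferation genes, 2 were higher and 4 lower and a median of -0.54 (-0.73). PCLAF, a partner of the replication clamp, had 63.1 and 16.5 CPM and STMN1 275 and 413 CPM. Of 9 antigen presentation genes, 0 were higher and 0 lower, with a median of 0.08. Of 28 actin and motility genes, 1 was higher and 4 lower (-0.24), of 15 glycolysis genes 2 and 0 (-0.26), of 17 survival genes 5 and 1 (0.39), and of 13 steroid receptor and response genes 5 and 0 (0.83).

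Stromal, muscle, gland, epithelial and endothelial markers had median ratios in the lymphocytes of the same sign as in the other barcodes. Stromal fibroblast markers were lower by 2-fold in library 2 in 5 of 9 cases and higher in 1, with a median of -1.25 (other barcodes -1.57), and smooth muscle markers lower in 4 of 7 (-1.05 and -1.18). Gland secretions other than the 3 genes of the rule were higher in 7 of 9 and lower in 1 (3.23 and 4.27), and epithelial markers higher in 5 of 6 (3.10 and 3.24). Endothelial markers had 2 of 13 higher and 0 lower (-0.32 and -0.82). For leukocytes, 1 of 5 measured macrophage, monocyte and dendritic markers was higher and 2 lower, with a summed level of 154 and 104 CPM. Of 7 B and plasma cell markers, 1 was higher and 1 lower, of 6 mast cell and granulocyte markers 1 and 0, of 7 regulatory and helper T markers 1 and 1, and of 6 innate lymphoid and gamma delta markers 1 and 1. For all of these lists, what RNA from other cells contributes to the values of the lymphocytes was not tested.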

How the data were processed

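Single-cell RNA was measured in 1 library from each of 2 sows. The deposited matrices hold raw counts, whole UMIs per gene and barcode, which the authors made with Cell Ranger: version 6.1.0 per the file headers and 2.1.1 per the submitters' processing notes. The genome build is not given in the sources used here. Symbols came from the deposited gene lists, where 16128 of 26881 genes have none. The cells and the gene lists were chosen with earlier results of these data known.

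Counts were summed over the chosen cells of each library and divided by their total. CPM carry exact Poisson intervals, log2 ratios an exact conditional binomial interval, and shares a Clopper-Pearson interval, all at 95% and covering counting error only. UMIs under 3 were set to 3 in a ratio. With 1 library per group, a gene was called past 2-fold, and no test was made. Gene counts use genes with at least 10 UMIs over both libraries. Doublets were called with Scrublet in scanpy 1.11.5 on barcodes with at least 500 UMIs and 200 genes, and left in. Python 3.11.15, numpy 2.4.6, scipy 1.17.1 and pandas 2.3.3 were used, with edgeR 4.0.16 for TMM factors. The ratio calculation was tested on simulated data.

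Genes were named by these rules: the genes of the rule; up to 4 genes per list with the largest ratio, at least 50 CPM and an interval without 0; the 10 highest and 10 lowest differences from the other barcodes from 100 CPM; 8 genes each way for the split by CD3; the 15 genes with the highest fold over the other barcodes from 100 CPM; and T, NK and effector genes. Other named genes pass none of these rules. Some of them are marked as chosen after their values were seen, and others, among them LAG3, TIGIT, CTLA4, IL10 and CXCL8, are not marked. Alternatives covered the rule's UMI minimum, a barcode filter, doublets, thinning, cells with RNA of other types, TMM scaling, equal weight per cell and the low-count filter.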

Additional observations from a re-analysis of the deposited data

Results flagged for a closer look

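FCGR3A (CD16) differed in direction between the libraries when lymphocytes with a CD3 UMI were set against those without one. Its log2 ratio was 0.55 in library 1 and -0.23 in library 2. The difference between the libraries was not tested. Without the cells that held macrophage-list UMIs, the ratios were 0.71 and 0.05.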

How the results depend on the processing

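The choice of cells moved the share of barcodes taken as lymphocytes most. It was 3.41% in library 1 and 5.84% in library 2 with 1 UMI of CCL5, KLRK1 and XCL1 (a difference of 2.42 points), 2.70% in library 1 with barcodes of at least 1000 UMIs and 500 genes (2.39 points), 4.55% in library 2 without called doublets, and 1.83% and 3.52% after thinning to 1000 UMIs. It was 0.627% and 1.52% (0.890 points) without cells that held 3 or more UMIs of other cell types, which left 63 and 229 cells, with 723 genes higher and 558 lower by 2-fold. Without called doublets and cells with 1% or more of other cell types, an alternative added after seeing the data, it was 2.33% and 3.68% (1.35 points). The share with CD3 was 23.8% and 16.1% after thinning. Genes lower by 2-fold numbered 2084 from 1 UMI and 490 from 50 UMIs.

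In the split by CD3, thinning turned the direction of RASAL3 (-0.53), ITIH4 (-1.02), LRRK2 (0.94) and ASC (0.94) in library 1 and of ITIH4 (-0.20) in library 2. ITIH4 was -2.49 in library 2 without doublets and cells with 1% or more of other types. Without the cells with macrophage-list UMIs, also added after seeing the data, AIF1 was 0.57, TYROBP 0.40 and CTSS 0.015 in library 1. Of the ratios between libraries, those of KRT8 (-0.31), KRT18 (-0.12), BCL6 (-1.80) and TNFRSF9 (-1.12) turned without cells with 3 or more UMIs of other types. Library 1 kept 63 cells there, and setting a count under 3 to 3 in library 1 alone lowers the ratio. No direction is therefore read from these genes. OGN (0.029) turned without doublets and cells with 1% or more. NR3C2 and FLT1 came to -2.54 in the first of these settings. Counts set to 3 in both libraries give the same value, as for C1QA, so no direction is read from them. IRF4, CCR4 and TNFRSF4, past 2-fold higher in the main setting, were also below 0 under at least 1 alternative. IRF4 (-2.54) took that same value. CCR4 (-0.95) and TNFRSF4 (-0.31) had few UMIs in library 1, where setting a count under 3 to 3 lowers the ratio. No direction is read from these genes either. Of the single-gene ratios under the alternatives, 2454 stayed within their counting interval and 449 left it. The other 7, with NR3C2 and FLT1 but without IRF4, CCR4 and TNFRSF4, were counted as turned from past 2-fold to the other sign. Of the list medians, 378 moved by at most 1.5 times, 30 by more and 0 turned in this way. No paired analysis was possible because each group has 1 library and the groups therefore share fewer than 2 replicate numbers. With 839829 UMIs over the lymphocytes of library 1, genes of few CPM there carry wide intervals.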
